A study of Mus musculus with 6 samples.

Results

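The genes of the cell cycle engine and the kinetochore are described here in vascular smooth muscle cells grown from mouse aorta, the contractile cells of the artery wall, after knockdown of Sirt6. Members were taken by gene name: cyclins A, B, D, E and F, the cyclin-dependent kinases Cdk1, Cdk2, Cdk4 and Cdk6, the Cdc, Cdca and Cenp families, Aurora and Polo kinases, spindle checkpoint genes, MCM and ORC genes, condensins, E2F and retinoblastoma genes, and single genes such as Mki67, Pcna and Top2a. Cdc42, a small GTPase of the cytoskeleton that shares only the Cdc name, was left out. The rule found 74 of the 7384 listed genes, and it used names alone, not measured values. By role, 14 members were placed in G1/S control, 7 in S phase, 43 in mitosis and 10 in other function. The last class does not exclude a part in the cell cycle. Cyclin A2 (Ccna2), which acts in S phase and in mitosis, was counted with mitosis. The role list holds 130 names, of which 56 were outside the tables and were not analysed here, among them 13 of its 20 S phase names, including every Orc gene, Cdc6 and Cdc45, as well as E2f1, Ccne1, Cdc20, Aurka, Birc5 and Ube2c.

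RNA was sequenced from aortic smooth muscle cells after 48 h of knockdown of Sirt6 by RNA interference (siSirt6, 3 samples) or under control conditions (Control, 3 samples). The product of Sirt6 is a sirtuin, an enzyme that removes acyl groups from histones. The labels give neither the strain, age or sex of the mice, nor what the Control cells received, nor whether the samples of a group came from separate mice or cultures, so the p-values here measure the spread between these samples, which may be technical. The labels name no transgene or other agent.

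Cells enter the cycle when D cyclins with Cdk4 or Cdk6, and then E cyclins with Cdk2, phosphorylate the retinoblastoma proteins and release E2F factors, which drive genes of DNA replication. Mitosis follows under cyclins A and B with Cdk1. Chromosomes are then condensed, attached through kinetochores to the spindle and held back by the spindle checkpoint until the anaphase-promoting complex releases them. Many mitotic promoters carry a cell cycle genes homology region (CHR) near CCAAT boxes, and many replication promoters carry E2F sites. Smooth muscle cells of the healthy artery wall rarely divide, and re-enter the cycle in culture and after injury.

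The deposited values are reads divided by a scaling factor per library, called normalised read counts here; values given library by library are in this unit, for replicates 1 to 3 of each group. Listed genes took 14614192 to 15526399 reads in siSirt6 libraries and 14458847 to 14563794 in Control libraries. Sirt6 itself had 44.5, 59.8 and 63.5 in siSirt6 libraries, against 251.7, 257.0 and 270.4 in Control libraries. It was lower in every siSirt6 library (log2 fold change -2.21 ± 0.141 SE, adjusted p = 1.16e-15 by limma). The tables consist almost entirely of genes that differ: 99.8% of the 7179 genes tested passed an adjusted p of 0.05, so that passing says little about a member, and the direction and size carry the description. Of the smooth muscle markers 9 of 12 were listed, 7 higher and 2 lower in siSirt6, with a summed level of 129335.3 to 130980.7 in siSirt6 libraries and 83405.3 to 84206.1 in Control libraries; Acta2 alone averaged 96835.8 ± 420.1 in siSirt6 and 58252.9 ± 107.4 in Control (SD, n = 3 each). Myocd, Des and Synpo2 were outside the tables. Endothelial markers were listed for 9 of 12 genes, all 9 higher, with summed levels of 1916.4 to 2068.6 in siSirt6 libraries and 1047.0 to 1202.4 in Control libraries. Of the macrophage and leukocyte markers 3 of 12 were listed, all higher, with sums of 1977.6 to 2017.9 in siSirt6 libraries and 1776.9 to 1821.7 in Control libraries, while Ptprc, Adgre1 and Csf1r were not listed. Most of these sums was Lyz2, which averaged 1616.1 in siSirt6 and 1498.3 in Control. With libraries scaled to their listed totals, Lyz2 (adjusted p = 0.812), C1qb (0.082) and Cd68 (0.0812) did not pass. Fibroblast markers were listed for 8 of 10 genes, 3 higher and 5 lower, with sums of 75842.7 to 77130.9 in siSirt6 libraries and 91304.4 to 92276.6 in Control libraries. Most of these sums was Gsn, which averaged 57433.2 in siSirt6 and 72100.0 in Control. The part of these markers in the results on cell cycle genes was not tested.

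Cell cycle genes were mostly lower after Sirt6 knockdown. All 74 members passed the low-value filter and the test, 57 of them lower and 17 higher, where 49.3% of all tested genes were called lower and 50.5% higher. Since 1 was added to each value before taking log2, fold changes of low genes are understated. The median log2 fold change of the members was -0.29, beside 0.08 over all tested genes. G1/S control had the lowest median, -0.46, with 11 genes lower and 3 higher. Mitosis had a median of -0.31, with 37 lower and 6 higher. The S phase median was -0.18, with 5 lower and 2 higher, and the members of other function had a median of 0.33, with 4 lower and 6 higher. A ratio of siSirt6 to Control means of 0.8 or less was met by 9 of 14 G1/S genes, 0 of 7 S phase genes and 19 of 43 mitotic genes, where 29.2% of all tested genes met it. A ratio of 1.25 or more was met by 7 members, 5 of them of other function and 2 mitotic, where 28.6% of all tested genes met it. The ranges of the groups did not overlap for 73 of 74 members, with Cenpv as the exception, where 96.8% of all tested genes had no overlap. With p-values adjusted over all annotated genes, as if those outside the tables had been tested, 71 members passed, 55 lower and 16 higher, where 90.4% of tested genes passed, 44.4% lower and 45.9% higher. In RNA from whole cultures, fewer cycling cells and less RNA of these genes per cell cannot be told apart.

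**Figure D1:**
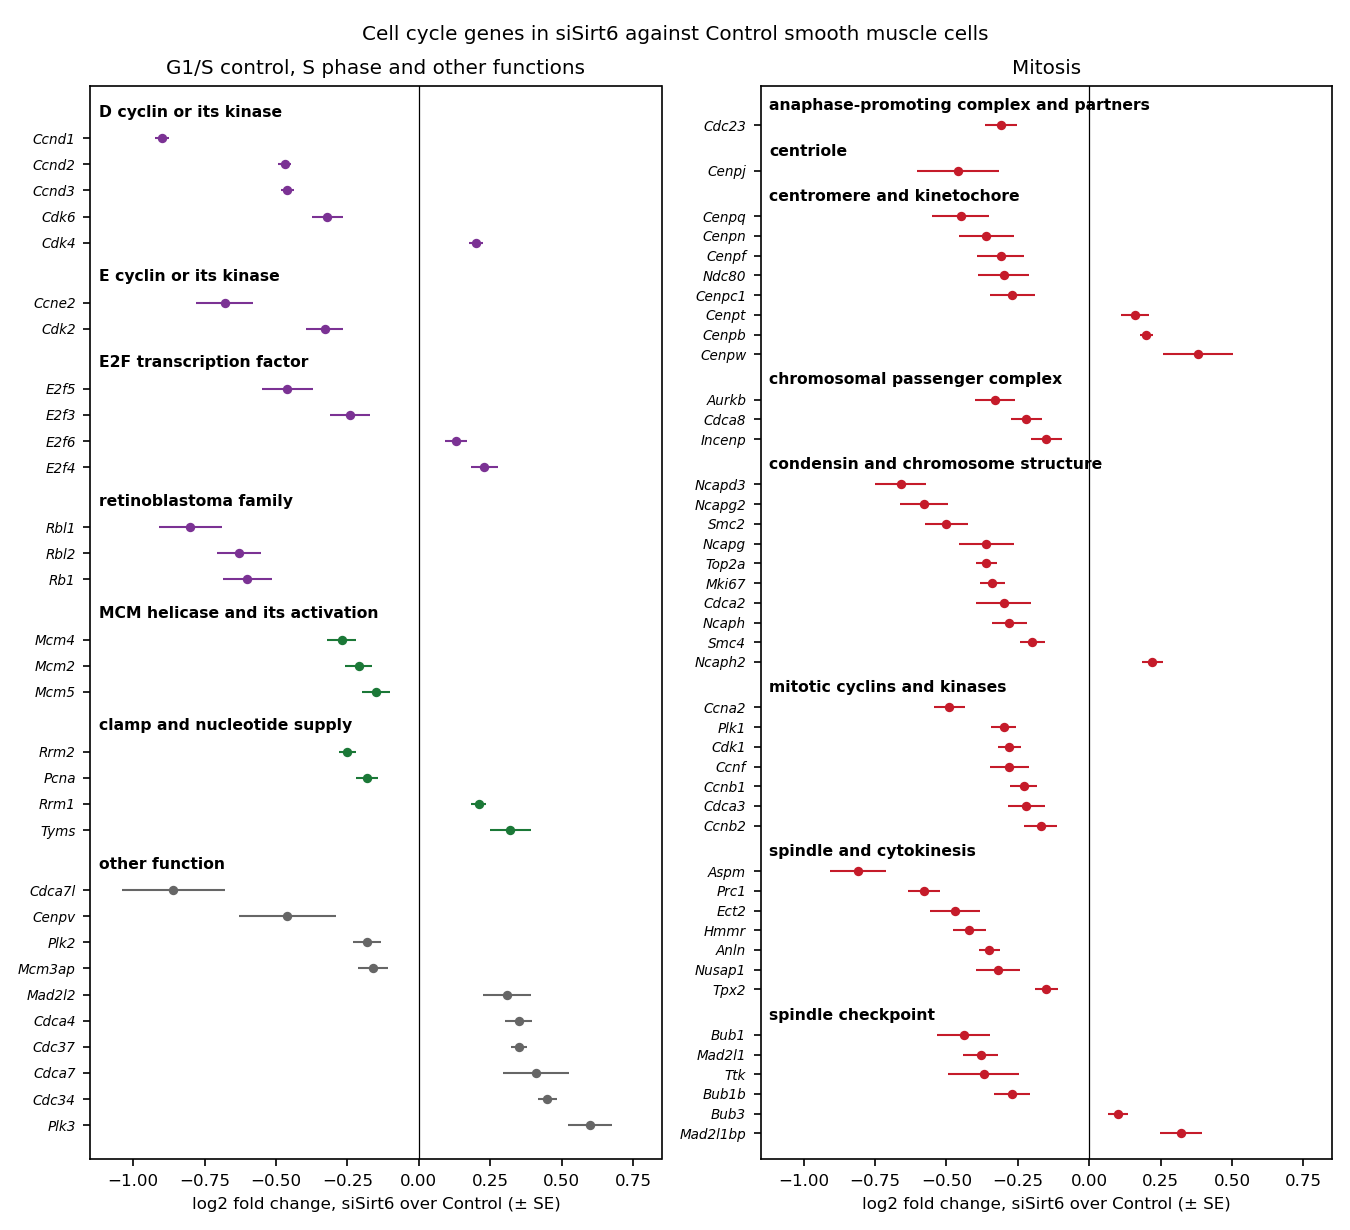
Log2 fold change of each of the 74 members, siSirt6 over Control, with its standard error from limma (n = 3 libraries each), G1/S, S phase and other functions in the left panel and mitosis in the right one, grouped by role. Most points lie left of 0, with Ccnd1 at -0.90, Cdca7l at -0.86, Aspm at -0.81 and Rbl1 at -0.80 farthest left, and Plk3 at 0.60 farthest right.

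Among the G1/S genes, the D cyclins, the growth-factor-responsive subunits that activate Cdk4 and Cdk6, were lower in siSirt6. Ccnd1, on chromosome 7 from 144929931 to 144939925 of GRCm38, had normalised read counts of 5500.8, 5775.0 and 5459.4 in siSirt6 libraries, against 10339.1, 10355.6 and 10522.1 in Control libraries. Its groups were far apart (log2 fold change -0.90 ± 0.024 SE, adjusted p = 3.62e-26), and it was the largest fall among the members. Ccnd2 had 6749.7, 6698.6 and 6603.1 in siSirt6 libraries, against 9319.5, 9161.9 and 9355.5 in Control libraries, and fell as well (log2 fold change -0.47 ± 0.022 SE, adjusted p = 3.26e-19), by less after correction for transcript length and GC content (log2 fold change -0.18), a smooth trend across genes that was taken out of each library. Ccnd3 had 6931.6, 7061.5 and 6683.3 in siSirt6 libraries, against 9612.2, 9591.3 and 9270.5 in Control libraries, again without overlap (log2 fold change -0.46 ± 0.024 SE, adjusted p = 4.30e-18). Together the D cyclins took 0.125% ± 0.00212 of the listed values in siSirt6 libraries and 0.207% ± 0.00044 in Control libraries (SD, n = 3 each), and their summed level in siSirt6 was 0.657 of that in Control. Their kinase partners went different ways. Cdk4, the catalytic partner of D cyclins, had 6774.4, 6964.6 and 6792.6 in siSirt6 libraries, against 5995.1, 5808.7 and 6015.8 in Control libraries. It was higher in every siSirt6 library (log2 fold change 0.20 ± 0.024 SE, adjusted p = 4.93e-09), although its adjusted p was 0.0719 after the length and GC correction. Cdk6, the other D-cyclin kinase, was lower with a ratio of 0.801, but its log2 fold change was 0.00 after that correction (adjusted p = 0.996).

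Per kilobase of the principal transcript, Ccnd3 stood at 3261.8 in siSirt6 and 4491.9 in Control. This scale sets different genes side by side only roughly, as it takes a single transcript per gene and leaves the length and GC trend in. Cdk4 stood at 3333.6 in siSirt6 and 2893.3 in Control, Ccnd1 at 1491.6 in siSirt6 and 2782.3 in Control and Ccnd2 at 1055.9 in siSirt6 and 1465.9 in Control. The order was thus Cdk4, Ccnd3, Ccnd1, Ccnd2 in siSirt6 and Ccnd3, Cdk4, Ccnd1, Ccnd2 in Control. In siSirt6 the first 2 were close (3333.6 and 3261.8 per kilobase). Ccne2, Cdk6, Rb1, Rbl1 and Rbl2 stood far lower, at 31.1 to 58.1 per kilobase in siSirt6 and 53.9 to 90.2 in Control.

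Ccne2, an E cyclin that activates Cdk2 at the entry into S phase, had 167.1, 175.2 and 162.3 in siSirt6 libraries, against 251.7, 276.5 and 284.9 in Control libraries. The siSirt6 libraries all lay below the Control libraries, with a ratio of 0.621 (log2 fold change -0.68 ± 0.1 SE, adjusted p = 2.77e-07). Cdk2, its kinase, had a ratio of 0.792 (adjusted p = 2.89e-05). All 3 members of the retinoblastoma family, which bind E2F factors and hold them inactive, were lower. Rbl1 (p107) had 175.0, 144.3 and 134.2 in siSirt6 libraries, against 249.8, 265.8 and 270.4 in Control libraries. Rbl2 (p130) had 274.9, 281.4 and 301.8 in siSirt6 libraries, against 452.8, 450.8 and 429.8 in Control libraries, and Rb1 had 249.2, 292.8 and 266.4 in siSirt6 libraries, against 415.7, 427.4 and 379.5 in Control libraries. No siSirt6 library of these 3 genes reached a Control library, and the ratios were 0.577 for Rbl1 (adjusted p = 8.24e-08), 0.644 for Rbl2 (adjusted p = 9.31e-09) and 0.661 for Rb1 (adjusted p = 1.46e-07).

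The E2F factors were split. E2f5, which works with p130 as a repressor, was lower with a ratio of 0.728 (adjusted p = 2.37e-05), and E2f3, an activator, was lower with a ratio of 0.846 (adjusted p = 0.00252, and 0.704 after the length and GC correction). E2f4, the main partner of p107 and p130, had 1071.9, 1112.3 and 1113.5 in siSirt6 libraries, against 943.6, 908.4 and 955.2 in Control libraries. Its siSirt6 values were the higher ones (log2 fold change 0.23 ± 0.047 SE, adjusted p = 4.48e-05), but the adjusted p was 0.529 after the length and GC correction. E2f6, a repressor that does not bind retinoblastoma proteins, had 1811.5, 1953.5 and 1853.5 in siSirt6 libraries, against 1728.1, 1752.5 and 1665.0 in Control libraries. This was a small rise (log2 fold change 0.13 ± 0.039 SE, adjusted p = 0.00308), which was lost when each library was scaled to its listed total (adjusted p = 0.848).

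**Figure D2:**
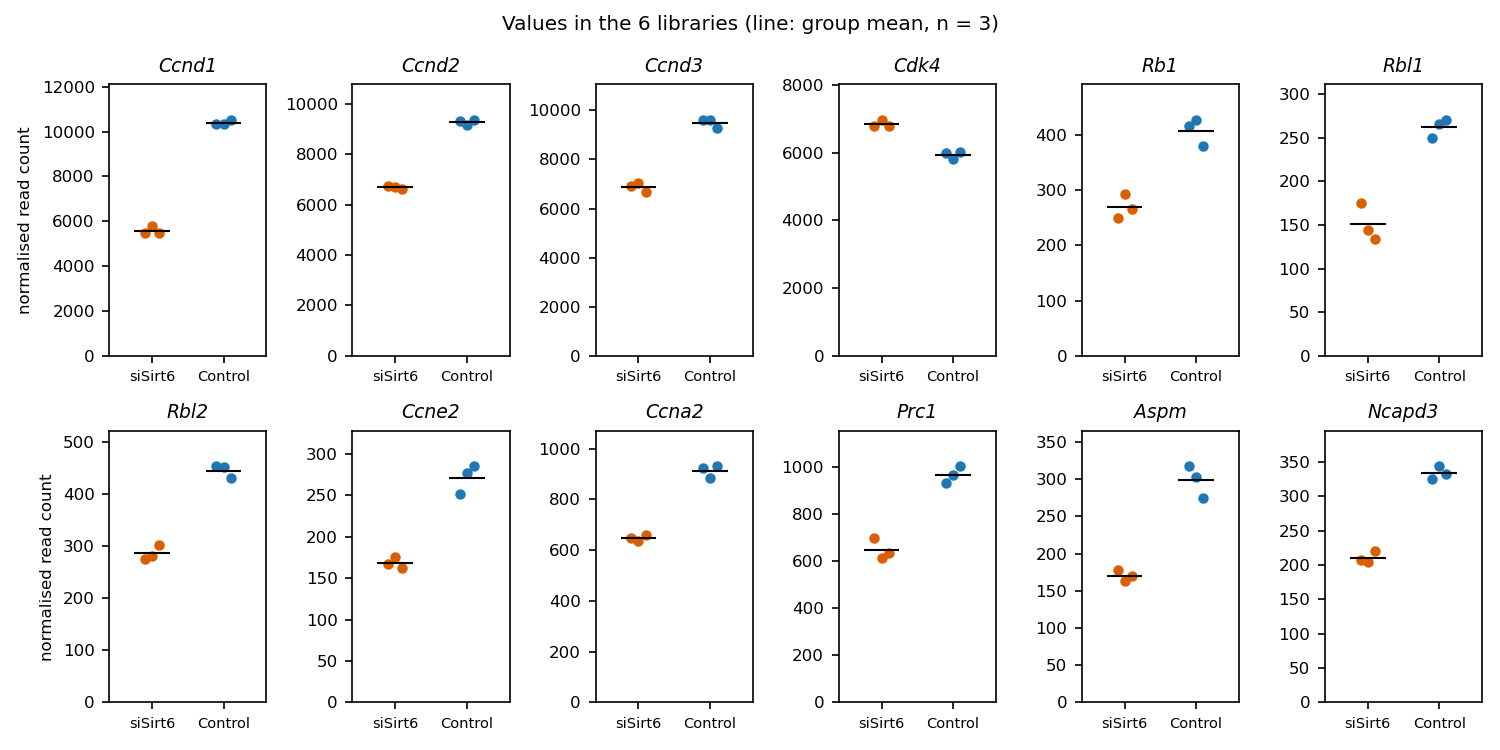
Normalised read counts of 12 members in each of the 3 siSirt6 and 3 Control libraries, each point a library and each line a group mean, with axes from 0. The groups are separate in all 12 panels, and Cdk4 is the only one of these 12 with siSirt6 above Control.

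A list of CDK inhibitors, subunits of the DREAM complex, which silences cell cycle genes in resting cells, and G1 regulators had 13 of its 22 names in the tables, 5 higher and 8 lower, with a median log2 fold change of -0.33. After the length and GC correction this median was -0.45, with 4 genes higher and 7 lower. Over all tested genes 36.6% were then higher and 36.7% lower. Cdkn1a, which encodes the CDK inhibitor p21, had 11114.4, 10602.5 and 10687.8 in siSirt6 libraries, against 8465.7, 8733.5 and 8259.3 in Control libraries. It rose to a ratio of 1.27 (adjusted p = 6.59e-15), a log2 fold change of 0.35, or 0.18 after the length and GC correction. Cdkn1b (p27) was lower at 0.616, a log2 fold change of -0.7, or -0.45 after the length and GC correction. Cdkn1c (p57), of the same family, was higher at 1.2 (adjusted p = 2.31e-08), with 0.06 left on the log2 scale after that correction (adjusted p = 0.107). Cdkn2b (p15), an inhibitor of Cdk4 and Cdk6, fell to 0.743 (adjusted p = 3.68e-11), and its relatives Cdkn2c (0.688), Cdkn2a (0.777) and Cdkn2d (0.808) were lower too. On the log2 scale Cdkn2b moved from -0.43 to -0.74 with the length and GC correction. Cdkn2c moved from -0.53 to -0.65, Cdkn2a from -0.36 to -0.77 and Cdkn2d from -0.31 to -0.62. Counts of Cdkn2a do not separate p16 from p19Arf here. Myc, a transcription factor that drives growth and G1 entry, had 1061.0, 1077.3 and 992.8 in siSirt6 libraries, against 648.9, 671.8 and 689.6 in Control libraries. It rose to a ratio of 1.56 (adjusted p = 1.11e-12), a log2 fold change of 0.64, or 0.32 after the length and GC correction. Wee1, the kinase that restrains Cdk1, was lower at 0.684, a log2 fold change of -0.55, or -0.45 after the length and GC correction.

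The 7 S phase members had ratios of siSirt6 to Control means from 0.829 for Mcm4 to 1.24 for Tyms, 5 of them lower and 2 higher. The listed subunits of the MCM helicase, which unwinds DNA at the replication fork, were all lower. Its subunits Mcm3, Mcm6 and Mcm7 were not listed. Mcm4 had 997.7, 900.0 and 944.9 in siSirt6 libraries, against 1094.8, 1190.8 and 1142.5 in Control libraries, which left the groups apart (log2 fold change -0.27 ± 0.05 SE, adjusted p = 1.05e-05). Mcm2 had a ratio of 0.867 (adjusted p = 1.73e-04). Mcm5 had 977.9, 938.1 and 928.3 in siSirt6 libraries, against 1018.7, 1111.9 and 1020.8 in Control libraries. Although its siSirt6 values were all below Control, the fall was small (log2 fold change -0.15 ± 0.049 SE, adjusted p = 0.0061), and the call was lost without Control replicate 2 (adjusted p = 0.066) and after the length and GC correction (adjusted p = 0.0975). Pcna, the sliding clamp of DNA polymerases, had 1735.4, 1631.9 and 1649.5 in siSirt6 libraries, against 1849.1, 1894.7 and 1949.9 in Control libraries (log2 fold change -0.18 ± 0.038 SE, adjusted p = 6.63e-05).

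Genes of nucleotide supply went both ways. Rrm2, the S-phase-restricted subunit of ribonucleotide reductase, had 3026.8, 3009.1 and 3104.4 in siSirt6 libraries, against 3558.6, 3742.7 and 3555.0 in Control libraries. It fell (log2 fold change -0.25 ± 0.03 SE, adjusted p = 7.96e-09), while Rrm1, the large subunit of the same enzyme, had 4772.1, 4825.5 and 4743.4 in siSirt6 libraries, against 4024.0, 4213.9 and 4149.9 in Control libraries and rose (log2 fold change 0.21 ± 0.027 SE, adjusted p = 1.95e-08). Per kilobase, Rrm2 stood at 1389.3 in siSirt6 and 1650.1 in Control and Rrm1 at 1196.0 in siSirt6 and 1033.1 in Control, so that Rrm2 exceeded Rrm1 by less in siSirt6. Tyms, thymidylate synthase, which makes thymidylate for DNA, had 653.6, 676.3 and 738.9 in siSirt6 libraries, against 498.6, 629.0 and 537.9 in Control libraries. It was higher in siSirt6 (log2 fold change 0.32 ± 0.072 SE, adjusted p = 2.50e-04), with the lowest siSirt6 library at 653.6 close to the highest Control library at 629.0. Outside the members, a list of other replication genes had 13 of 44 names in the tables, 5 higher and 8 lower, with a median log2 fold change of -0.19. Of all tested genes 50.5% were called higher and 49.3% lower. Slbp, which binds histone mRNA in S phase, had 581.4, 577.3 and 504.7 in siSirt6 libraries, against 745.5, 785.7 and 789.0 in Control libraries. This was the list's smallest ratio, 0.717 (adjusted p = 2.46e-08). Uhrf1, which carries DNA methylation through replication, fell to 0.791 (adjusted p = 4.64e-07), and Gins2, a subunit of the replicative helicase, rose to 1.29 (adjusted p = 1.86e-06). Timeless (0.744), Donson (0.764), Hells (0.765) and Clspn (0.802) were also lower, while Chaf1b (1.25), Dbf4 (1.16), Pold2 (1.16) and Dut (1.16) were higher. After the length and GC correction the list's median was -0.05, with 2 genes higher and 5 lower. Of all tested genes 36.6% were then higher and 36.7% lower, so the lower count of the list was near that share. Hells (-0.04, adjusted p = 0.693), Clspn (-0.09, 0.4), Chaf1b (0.13, 0.148) and Dut (0.09, 0.147) then missed the threshold, as did Pold2, whose log2 fold change turned to -0.05 (0.508).

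Mitotic genes were mostly lower, in 37 of 43 members, with lower genes in every role. The role of mitotic cyclins and kinases, in which Cdca3 was also counted, had all 7 members lower, with ratios of 0.71 to 0.886. Ccna2, cyclin A2, had 648.7, 635.0 and 658.8 in siSirt6 libraries, against 922.1, 884.1 and 930.0 in Control libraries. Every siSirt6 value was well below Control (log2 fold change -0.49 ± 0.054 SE, adjusted p = 6.56e-10). Cdk1, the kinase that drives mitosis, had 1441.7, 1402.0 and 1364.3 in siSirt6 libraries, against 1728.1, 1673.7 and 1703.6 in Control libraries, also without overlap (log2 fold change -0.28 ± 0.04 SE, adjusted p = 1.47e-07). Plk1, a Polo kinase of centrosomes and kinetochores, had 1001.7, 982.4 and 992.8 in siSirt6 libraries, against 1225.6, 1192.7 and 1255.5 in Control libraries and fell by a similar step (log2 fold change -0.30 ± 0.045 SE, adjusted p = 3.66e-07). Ccnb1 and Ccnb2, the B cyclins, had ratios of 0.851 (adjusted p = 4.69e-05) and 0.886 (adjusted p = 0.00565). After the length and GC correction, the log2 fold change of Plk1 was -0.47, lower than without that step, and that of Ccna2 was -0.42. Cdk1, whose principal transcript is long at 4375 nt, was left with -0.08 (adjusted p = 0.0782).

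The spindle checkpoint, which delays anaphase until every kinetochore is attached, had 4 genes lower and 2 higher. Mad2l1 (Mad2), the inhibitor of the anaphase-promoting complex, had 561.7, 555.6 and 530.7 in siSirt6 libraries, against 731.8, 673.8 and 734.0 in Control libraries. The fall had a log2 fold change of -0.38 ± 0.061 SE, adjusted p = 1.47e-06, but after the length and GC correction it was -0.02 (adjusted p = 0.809), beside a principal transcript of 7557 nt. Bub1, a checkpoint kinase, had 204.7, 252.6 and 226.9 in siSirt6 libraries, against 301.5, 300.9 and 325.5 in Control libraries (log2 fold change -0.44 ± 0.094 SE, adjusted p = 8.04e-05). Bub1b had a ratio of 0.831 and Ttk (Mps1) of 0.771, both lower. Mad2l1bp, the p31comet protein that switches the checkpoint off, went the other way with 468.7, 471.1 and 544.3 in siSirt6 libraries, against 385.4, 401.1 and 396.9 in Control libraries. Its siSirt6 values were the higher ones (log2 fold change 0.32 ± 0.074 SE, adjusted p = 1.82e-04), with 0.02 left after the length and GC correction (adjusted p = 0.852). Bub3, a scaffold of the checkpoint, had 2207.1, 2216.4 and 2258.3 in siSirt6 libraries, against 2016.9, 2099.2 and 2112.1 in Control libraries. The difference was the smallest of all members (log2 fold change 0.10 ± 0.035 SE, adjusted p = 0.00659) and turned to -0.02 when libraries were scaled to their listed totals (adjusted p = 0.637). Ttk missed the threshold without Control replicate 2, with an adjusted p of 0.0535.

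Cdc23, a subunit of the anaphase-promoting complex, had 655.6, 712.3 and 724.3 in siSirt6 libraries, against 872.3, 830.5 and 886.6 in Control libraries and was lower (log2 fold change -0.31 ± 0.056 SE, adjusted p = 8.42e-06; adjusted p = 0.0519 after the length and GC correction). The 3 listed subunits of the chromosomal passenger complex, which corrects wrong attachments, were all lower. Aurkb, its kinase, had 419.3, 502.0 and 445.4 in siSirt6 libraries, against 571.8, 573.5 and 569.8 in Control libraries. Cdca8 (borealin) had 715.9, 688.6 and 741.0 in siSirt6 libraries, against 846.0, 836.4 and 813.2 in Control libraries, and Incenp, its scaffold, had 811.8, 841.2 and 825.3 in siSirt6 libraries, against 975.8, 904.5 and 871.1 in Control libraries. Aurkb had the largest fall of the complex (log2 fold change -0.33 ± 0.07 SE, adjusted p = 7.01e-05), Cdca8 a smaller one (log2 fold change -0.22 ± 0.054 SE, adjusted p = 4.55e-04) and Incenp the smallest (log2 fold change -0.15 ± 0.053 SE, adjusted p = 0.00838; adjusted p = 0.0826 without Control replicate 1). After the length and GC correction, Aurkb stood at -0.49 and Cdca8 at -0.45 on the log2 scale, lower than without that step.

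Centromere and kinetochore genes were split, 5 lower and 3 higher. Cenpq, of the inner kinetochore, had 176.0, 188.6 and 201.9 in siSirt6 libraries, against 273.2, 257.0 and 243.4 in Control libraries (log2 fold change -0.45 ± 0.1 SE, adjusted p = 1.40e-04). Cenpn, which reads the centromeric nucleosome, had 200.7, 223.7 and 212.3 in siSirt6 libraries, against 282.0, 259.0 and 278.1 in Control libraries (log2 fold change -0.36 ± 0.095 SE, adjusted p = 7.74e-04). The other lower members were Cenpf (0.805), Ndc80 (0.807), the microtubule-binding subunit of the outer kinetochore, and Cenpc1 (0.83). Cenpb, which binds a sequence of centromeric satellite DNA, had 9732.0, 9496.4 and 9270.4 in siSirt6 libraries, against 8235.4, 8400.5 and 8163.7 in Control libraries. It rose a little in siSirt6 (log2 fold change 0.20 ± 0.023 SE, adjusted p = 1.65e-09) and was the most abundant kinetochore member, at 1944.2 in siSirt6 and 1691.9 in Control per kilobase, where the other 7 stood at 28.6 to 533.1 in siSirt6 and 35.6 to 477.8 in Control. Cenpw, a histone-fold protein that pairs with Cenpt, had 169.1, 184.5 and 158.2 in siSirt6 libraries, against 122.9, 122.7 and 148.7 in Control libraries (log2 fold change 0.38 ± 0.123 SE, adjusted p = 0.00494), and Cenpt had 934.4, 978.3 and 988.7 in siSirt6 libraries, against 857.7, 858.7 and 883.7 in Control libraries (log2 fold change 0.16 ± 0.049 SE, adjusted p = 0.00373). Both of these partners were thus higher in siSirt6, but Cenpw had an adjusted p of 0.0581 by DESeq2 on 5 libraries, and Cenpt had an adjusted p of 0.452 with libraries scaled to listed totals and a log2 fold change of -0.06 after the length and GC correction (adjusted p = 0.243). Cenpj, a centriole protein despite its name, had 123.6, 89.7 and 137.4 in siSirt6 libraries, against 141.5, 157.7 and 180.6 in Control libraries and was lower (log2 fold change -0.46 ± 0.143 SE, adjusted p = 0.00344; adjusted p = 0.154 after that correction).

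Of the 10 genes of condensin and chromosome structure, 9 were lower. The condensin core subunits Smc2 and Smc4 had ratios of 0.704 (adjusted p = 7.27e-07) and 0.871 (adjusted p = 1.27e-04), and those of condensin I, Ncapg and Ncaph, had ratios of 0.776 and 0.822. Ncapd3, of condensin II, had 207.7, 204.1 and 220.6 in siSirt6 libraries, against 324.9, 343.7 and 332.2 in Control libraries. Its fall was the largest of the complex (log2 fold change -0.66 ± 0.089 SE, adjusted p = 6.02e-08), and Ncapg2, a second subunit of condensin II, followed at 0.668 (adjusted p = 2.17e-07). Ncaph2, the kleisin of the same complex, had 2149.7, 2019.5 and 2061.6 in siSirt6 libraries, against 1727.1, 1831.4 and 1800.2 in Control libraries. It was the only condensin member that was higher (log2 fold change 0.22 ± 0.037 SE, adjusted p = 3.91e-06). Top2a, the topoisomerase that untangles sister chromatids, had 1472.4, 1489.6 and 1480.9 in siSirt6 libraries, against 1879.3, 1881.1 and 1946.0 in Control libraries. Mki67, the proliferation marker Ki-67 that coats mitotic chromosomes, had 1229.1, 1323.6 and 1292.5 in siSirt6 libraries, against 1523.2, 1688.3 and 1667.9 in Control libraries. Both fell, Top2a by 0.36 (adjusted p = 2.71e-10) and Mki67 by 0.34 (adjusted p = 2.36e-08) on the log2 scale. After the length and GC correction these were -0.08 (adjusted p = 0.0503) and -0.02 (adjusted p = 0.608), beside principal transcripts of 5221 and 10061 nt.

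All 7 members of spindle and cytokinesis fell. Aspm, which focuses spindle poles, had 178.0, 162.9 and 169.6 in siSirt6 libraries, against 317.1, 302.8 and 275.2 in Control libraries. That was the largest fall among mitotic members (log2 fold change -0.81 ± 0.099 SE, adjusted p = 8.20e-09), and -0.47 was left after the length and GC correction. Prc1, which bundles the central spindle, had 698.1, 615.4 and 634.8 in siSirt6 libraries, against 933.8, 965.8 and 1004.4 in Control libraries, a difference many times its error (log2 fold change -0.58 ± 0.056 SE, adjusted p = 5.98e-11). Anln (anillin), which scaffolds the contractile ring, had 1523.8, 1477.2 and 1541.3 in siSirt6 libraries, against 1941.8, 1924.9 and 1930.6 in Control libraries (log2 fold change -0.35 ± 0.037 SE, adjusted p = 4.17e-10). The remaining genes had ratios of 0.725 for Ect2, the exchange factor that activates RhoA at the cleavage furrow, 0.745 for Hmmr, 0.803 for Nusap1 and 0.901 for Tpx2. After the correction, Tpx2 stood at 0.05 (adjusted p = 0.242).

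Mitotic genes outside the members gave a similar count. A list of 63 further mitotic names had 39 in the tables, 36 lower and 3 higher, with a median log2 fold change of -0.30. Of all tested genes 49.3% were called lower and 50.5% higher. Kif20a, the kinesin of the central spindle, had 576.5, 603.1 and 617.1 in siSirt6 libraries, against 952.3, 935.7 and 965.8 in Control libraries. It was the list's smallest ratio, 0.63 (adjusted p = 7.24e-13). Ckap2, a microtubule-associated protein, fell to 0.744 (adjusted p = 2.77e-09), and Knl1 (0.635), Kif11 (0.74), Foxm1 (0.828) and Melk (0.81) were lower too. Zwint, a kinetochore protein, had 3123.7, 3107.1 and 3203.2 in siSirt6 libraries, against 2364.3, 2415.6 and 2396.1 in Control libraries and rose to 1.31 (adjusted p = 3.32e-13), with Spc24 (1.22) and Cks2 (1.12) the only others of the list that were higher. After the length and GC correction the list's median was -0.21, with 3 genes higher and 24 lower. Cks2 was then lower, at -0.20 (adjusted p = 0.00377), and Spc24 lost its call, at 0.01 (adjusted p = 0.89). Ckap5 (0.10, adjusted p = 0.0422) and Hjurp (0.09, 0.0343) turned from lower to higher, and Knl1 missed the threshold (-0.27, 0.0548). Scaled to listed totals, neither Cks2 (adjusted p = 0.498) nor Spc24 (0.0888) passed. A list of the anaphase-promoting complex and cohesin had 12 of 22 names listed, 2 higher and 10 lower, with a median log2 fold change of -0.26. Its genes were long, at a median of 5403 nt, and after the length and GC correction 1 was higher and 3 were lower, with a median of 0.01. Over all tested genes that correction left 36.6% higher and 36.7% lower. Rad21, the cohesin subunit cut at anaphase, had 1381.4, 1442.2 and 1402.8 in siSirt6 libraries, against 2002.3, 2015.4 and 2058.1 in Control libraries and a ratio of 0.696 (adjusted p = 3.49e-14), and Stag2 had 0.796 (adjusted p = 1.78e-07, and 0.758 after the length and GC correction). Anapc5 rose to 1.17 (adjusted p = 2.14e-09).

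Promoter sequence was not used in the choice of members. The promoters of 5 members were read from RefSeq (GRCm38.p6) and are shown because Cdk1, Top2a and Prc1 hold both the CHR letters and CCAAT boxes, while Mcm5 and Rrm2 hold no CHR letters. Each runs 5′ to 3′ over the 200 bases before the start, with matches in capitals. They are Cdk1 on the minus strand (chr10:69352913-69353112), Top2a on the minus strand (chr11:99024190-99024389), the downstream of both Prc1 starts on the plus strand (chr7:80294276-80294475), Mcm5 on the plus strand (chr8:75109309-75109508) and Rrm2 on the plus strand (chr12:24708054-24708253).
Cdk1: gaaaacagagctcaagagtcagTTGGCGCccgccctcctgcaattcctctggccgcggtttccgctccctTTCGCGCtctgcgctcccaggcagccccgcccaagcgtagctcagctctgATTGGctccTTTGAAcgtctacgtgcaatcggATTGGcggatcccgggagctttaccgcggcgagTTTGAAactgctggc
Top2a: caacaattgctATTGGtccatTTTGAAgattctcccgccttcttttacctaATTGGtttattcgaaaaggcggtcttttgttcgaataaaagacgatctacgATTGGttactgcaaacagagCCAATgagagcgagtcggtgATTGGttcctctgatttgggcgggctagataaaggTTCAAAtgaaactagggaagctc
Prc1: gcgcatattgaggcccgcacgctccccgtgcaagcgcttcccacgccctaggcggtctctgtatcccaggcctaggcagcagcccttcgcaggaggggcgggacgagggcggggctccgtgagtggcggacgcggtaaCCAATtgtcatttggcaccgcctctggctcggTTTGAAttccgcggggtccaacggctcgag
Mcm5: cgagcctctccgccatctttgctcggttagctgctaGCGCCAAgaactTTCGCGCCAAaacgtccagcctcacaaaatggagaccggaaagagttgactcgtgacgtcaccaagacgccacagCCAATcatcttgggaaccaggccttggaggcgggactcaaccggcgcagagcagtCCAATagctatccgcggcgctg
Rrm2: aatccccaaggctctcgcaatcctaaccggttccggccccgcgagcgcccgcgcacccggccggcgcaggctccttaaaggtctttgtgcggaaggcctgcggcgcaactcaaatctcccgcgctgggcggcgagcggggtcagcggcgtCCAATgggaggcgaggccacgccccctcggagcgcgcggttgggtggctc

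The capitals mark TTTGAA (the CHR), CCAAT (the box bound by NF-Y) and the E2F letters, which were TTCCCGC or alternatively TTGGCGC or alternatively TTCGCGC, each on either strand. On the opposite strand TTGGCGC reads GCGCCAA and can share bases with CCAAT. Cdk1 had CHR letters 71 and 15 bases before its start, CCAAT boxes at 80 and 48, and E2F letters at 178 and 130. Top2a had CHR letters 179 and 23 bases before its start and CCAAT boxes between them. Prc1 had them 30 bases before the start, with a CCAAT box at 62. Mcm5 had 3 E2F matches from 164 to 149 bases before its start and CCAAT boxes at 77 and 22, and Rrm2 had a CCAAT box at 50. Over windows of 250 bases before to 50 after the start, the RefSeq table matched 60 of the 74 members, with 68 promoters; Ccnd1, Ccnd2, Ccne2, E2f5, E2f4, Rb1, Mcm4, Cdc23, Aurkb, Incenp, Cdca2, Smc4, Ccna2 and Tpx2 were not matched.

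CHR letters occurred in 27 of 40 mitotic promoters, which is 67.5% (exact 95% interval 50.9 to 81.4%, counting error only). They occurred in 1 of 6 S phase promoters (16.7%, interval 0.421 to 64.1%, which overlaps that of mitosis) and 2 of 10 G1/S promoters (20.0%), in 12.3% of the 6963 promoters of tested genes and in 17.9% of all 32851 promoters. CHR letters together with CCAAT occurred in 23 of 40 mitotic promoters (57.5%), 1 of 6 of S phase and 1 of 10 of G1/S, against 4.87% of the promoters of tested genes and 6.95% of all promoters. CCAAT, with or without CHR letters, occurred in 67.5% of mitotic promoters, 83.3% of S phase promoters and 3 of 10 G1/S promoters, against 36.4% for tested genes and 37.4% for all. E2F letters occurred in 32.5% of mitotic promoters, 2 of 6 S phase promoters and 3 of 10 G1/S promoters, against 14.3% for tested genes and 8.07% for all promoters. The related letters TTTAAA occurred in 20.0% of mitotic promoters, 2 of 6 S phase promoters (33.3%) and 1 of 10 G1/S promoters, against 9.69% for tested genes and 13.2% for all promoters. Promoters of 1 gene can overlap and share a site, so these intervals treat as independent what may not be; counted by gene, 24 of 36 mitotic genes had CHR letters. Of these, 22 were among the 30 called lower and 2 among the 6 called higher. Bub3 and Cenpw carried the letters and were higher, and Cenpq and Bub1 had none in the window and were lower. A match describes letters, not a bound site.

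**Figure D3:**
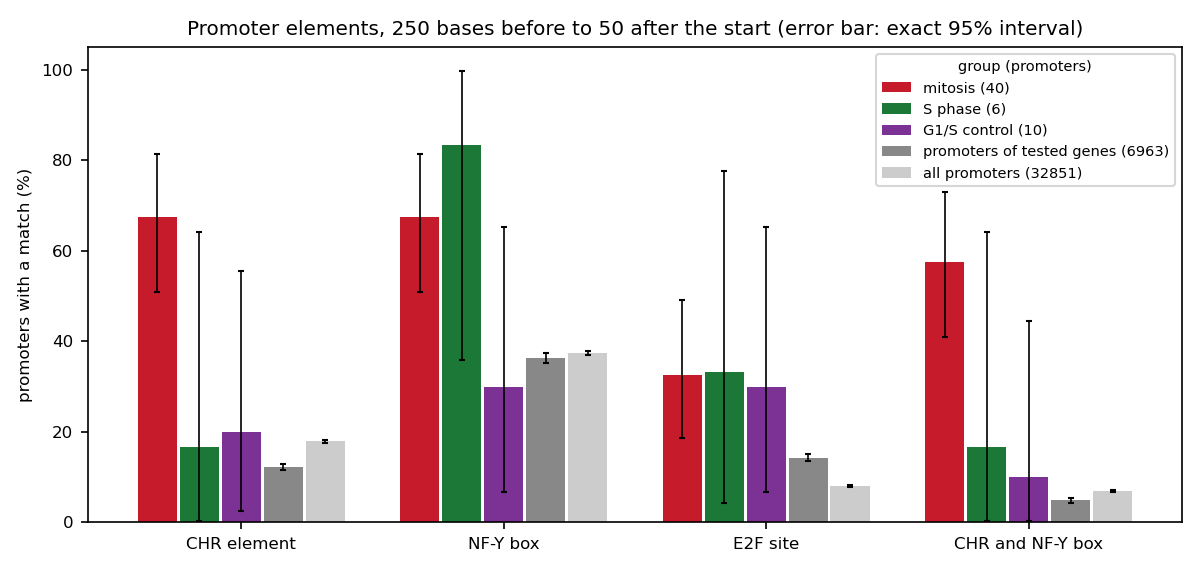
Share of promoters with each motif in mitotic, S phase and G1/S members, in tested genes and in all RefSeq promoters, in percent, with exact 95% intervals as error bars. The CHR share is 67.5% in mitosis and 16.7% in S phase, while the E2F share is 32.5% in mitosis and 33.3% in S phase.

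Taken as a share of all listed values, the classes moved by different amounts. G1/S genes took 0.207% ± 0.00292 in siSirt6 and 0.294% ± 0.00122 in Control (SD, n = 3 each). Mitotic genes took 0.247% ± 0.00128 in siSirt6 and 0.294% ± 0.00262 in Control. S phase genes took 0.0857% ± 0.000697 in siSirt6 and 0.0964% ± 0.00251 in Control. All 3 shares were lower in every siSirt6 library than in any Control library. The listed values summed to 15208768.6 to 15352853.5 in siSirt6 libraries and 14065347.7 to 14108354.8 in Control libraries. A gene with equal values in both groups thus has a lower share in siSirt6. On the sums of normalised read counts, siSirt6 stood at 0.764 of Control for G1/S, 0.912 for mitosis and 0.966 for S phase. The 3 D cyclins made up 19154.4 of the mean G1/S sum of 31629.0 in siSirt6 and 29175.9 of 41391.0 in Control. The sum of the other 11 G1/S genes stood at 1.02 of Control, with 12474.6 ± 171.2 in siSirt6 and 12215.1 ± 113.0 in Control (SD, n = 3 each). These 11 genes were lower as a share of listed values, whose total was the larger in siSirt6. Their share was 0.0816% ± 0.00112 in siSirt6 and 0.0867% ± 0.000853 in Control. Their sum was weighted by Cdk4, which rose and averaged 6843.9 in siSirt6 and 5939.9 in Control. The mitotic sum was weighted by Cenpb, which rose and averaged 9499.6 of a mean sum of 37721.6 in siSirt6 and 8266.5 of 41356.5 in Control. The S phase sum was weighted by Rrm1, which also rose. Rrm1 averaged 4780.3 of a mean sum of 13108.4 in siSirt6 and 4129.3 of 13575.1 in Control. The ratios of sums thus lean on a few abundant genes.

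**Figure D4:**
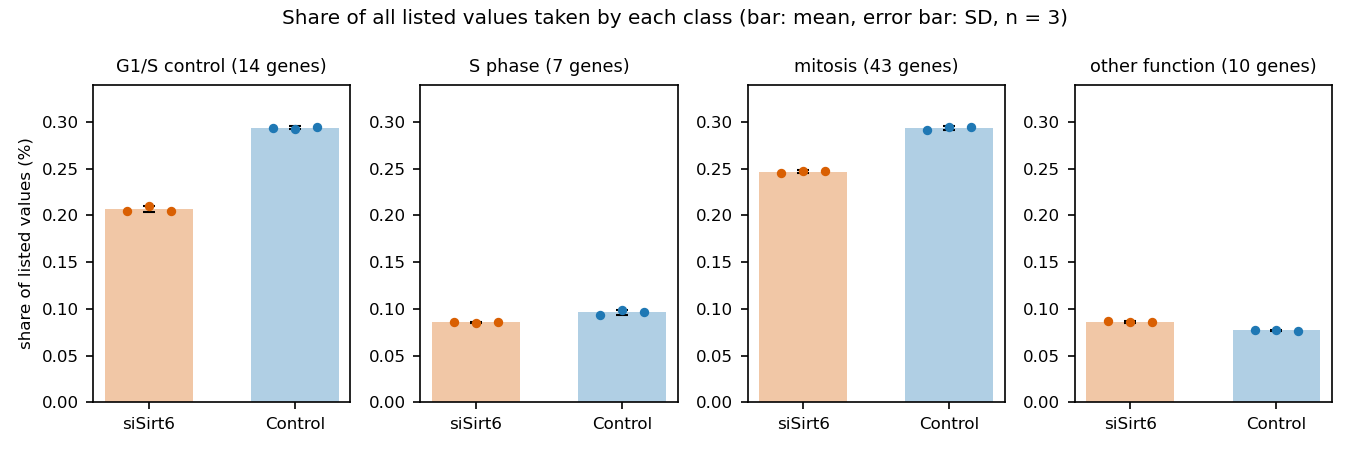
Percent of all listed values taken by G1/S, S phase, mitotic and other-function members in each library, bars giving group means and error bars the SD (n = 3 each). The first 3 classes are lower in siSirt6, and other function is higher at 0.0863% in siSirt6 and 0.077% in Control.

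Fold changes across the tables moved with transcript length. Of the tested genes with transcripts up to 1560 nt 83.5% were called higher, and of those from 5066 nt on 20.9% were. Spearman's rho between length and log2 fold change was -0.44 across 7130 genes, which are not independent. Across the 43 mitotic genes rho was -0.43. Mitotic genes called higher had a median principal transcript of 2016 nt, and those called lower of 3703 nt, beside 3001 nt over all tested genes. From 1561 to 2504 nt, where 65.9% of all genes were called higher, 2 of 10 mitotic members were. From 5066 nt on 0 of 7 were, where 20.9% of all genes were. After the length and GC correction, 52 of the 74 members kept their call, 16 lost it with the same sign (Cdk4, E2f3, E2f4, Mcm5, Cdc23, Cenpj, Cenpc1, Ncapg, Top2a, Mki67, Cdca2, Cdk1, Mad2l1, Bub3, Mad2l1bp and Mad2l2) and 6 changed sign without passing the test (Cdk6, Cenpf, Cenpt, Smc4, Tpx2 and Mcm3ap). Then 25 mitotic members were lower and 3 higher, where 36.7% of all tested genes were lower and 36.6% higher. G1/S had 9 lower and 1 higher, and S phase 4 lower and 2 higher. The class medians were -0.36 for G1/S, -0.19 for mitosis and -0.12 for S phase, beside -0.01 over all tested genes. With lengths of the longest transcript instead, 59 of the 74 members kept their call, among them Cdk1, Top2a and Cdc23. With these lengths 10 lost it with the same sign and 5 changed sign. What lies behind the length trend was not tested.

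**Figure D5:**
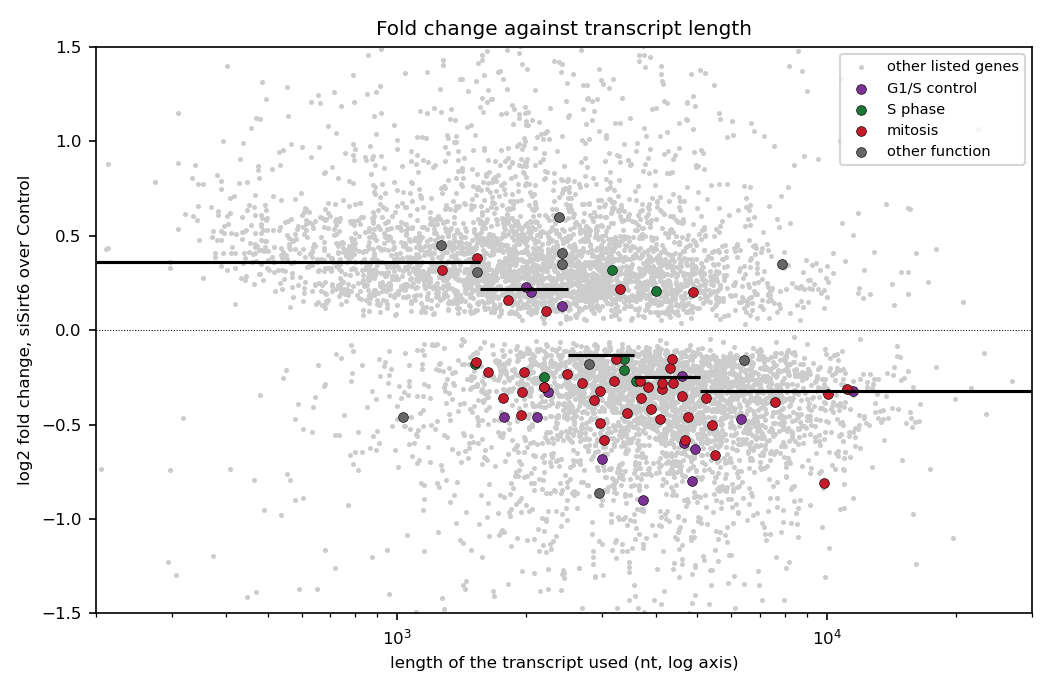
Log2 fold change, siSirt6 over Control, against the length in nt of the principal transcript, or of the longest where a gene has none, (log axis) for listed genes in grey and members in colour, with a bar at the median of each of 5 bins of length with equal gene numbers; genes beyond the vertical range are not drawn. Bin medians fall as length grows, with 0.36 in the shortest and -0.32 in the longest, and most mitotic members (red) lie below 0 in every bin but the shortest.

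The 10 members placed under other function did not share the general direction. Plk3, a stress-responsive Polo kinase, had 609.1, 549.5 and 545.3 in siSirt6 libraries, against 336.6, 419.6 and 371.8 in Control libraries. It was the largest rise of all members (log2 fold change 0.60 ± 0.077 SE, adjusted p = 2.45e-08). Cdc34, a ubiquitin-conjugating enzyme, had 2923.9, 2756.6 and 2788.0 in siSirt6 libraries, against 2072.5, 2058.3 and 2070.6 in Control libraries and was next (log2 fold change 0.45 ± 0.033 SE, adjusted p = 7.16e-14). Cdca7 (1.33), Cdc37 (1.28), a co-chaperone of Hsp90, Cdca4 (1.27) and Mad2l2 (1.24), a subunit of a translesion polymerase, were higher too. Cdca7l, a relative of Cdca7, had 42.5, 68.0 and 60.4 in siSirt6 libraries, against 95.6, 93.5 and 118.8 in Control libraries. It fell (log2 fold change -0.86 ± 0.18 SE, adjusted p = 6.80e-05), the largest fall after Ccnd1 among the members, with at most 118.8 normalised read counts in any library. Cenpv had 78.1, 69.1 and 70.8 in siSirt6 libraries, against 75.1, 116.8 and 114.0 in Control libraries, the only member whose groups overlapped (log2 fold change -0.46 ± 0.169 SE, adjusted p = 0.0111; adjusted p = 0.0866 without Control replicate 2 and 0.0668 without Control replicate 3). Plk2, a Polo kinase induced by growth factors, had 873.1, 894.8 and 903.3 in siSirt6 libraries, against 971.9, 1029.1 and 1016.0 in Control libraries (log2 fold change -0.18 ± 0.049 SE, adjusted p = 0.0014). Mcm3ap, a factor of mRNA export, had 869.2, 941.2 and 882.5 in siSirt6 libraries, against 953.3, 981.4 and 1071.0 in Control libraries (log2 fold change -0.16 ± 0.052 SE, adjusted p = 0.00556), and lost its call without Control replicate 3 (adjusted p = 0.0664).

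Some counts may include reads of a neighbour. No source used here states the strand setting of the counting, and exons of 23 members overlap a gene on the opposite strand, with 23.4% of the exonic bases of Ccnd1 (LTO1), 22.4% of Cdca7l, 21.0% of Rbl2, 19.7% of Cdk4 (Tspan31), 19.7% of Ncaph2 (Sco2 and Tymp), 17.4% of Ccne2 (Ints8), 14.9% of Rb1, 13.4% of Ncapg and 13.4% of Cdc23 (Kif20a) shared, and smaller shares in the others. Processed pseudogenes named for Ccnb1, Ccnb2, Ccnd3, Pcna and Tyms are annotated, so the counts of those 5 genes are uncertain where reads could be split.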

How the data were processed

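Aortic smooth muscle cells were profiled by RNA sequencing in 3 siSirt6 and 3 Control samples, with a stranded mRNA kit per the labels' protocols. HTSeq, Cufflinks, HISAT2, Trimmomatic and the build mm10 appear in the submitters' processing notes, with no roles or order. The deposited tables, 1 per library, list a signal for 7384 shared genes. This deposited signal equals whole reads scaled by 1 factor a library (100% whole within 0.001 reads); no source used here says how the factors were derived. Further genes were not analysed here.

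The members, the classes and the lists of genes were chosen with earlier results of these data known. Tested genes reached a value of 10 in 3 or more libraries (7179, with 205 left out). The 2-sided test was limma 3.58.1 with trended, robust empirical Bayes (R 4.3.3) on log2 of the value plus 1, with no covariate and Benjamini-Hochberg adjustment over all genes tested at 0.05. The design had named edgeR in case the values were raw counts; since they were not, edgeR 4.0.16 and DESeq2 1.42.0 were run on recovered reads only as alternatives, on 5 libraries, leaving out siSirt6 replicate 1, for which an automatic check did not accept the recovery. Ratios are of group means. Lengths and GC content are those of the APPRIS principal transcript in GENCODE vM21 (GRCm38), which 6825 of the 7331 listed genes found there and all 74 members have, and otherwise of the longest transcript, with natural splines of 4 degrees of freedom fitted per library to remove their trend. Locations are from the same annotation. Promoter matches were counted on both strands with exact (Clopper-Pearson) 95% intervals. The limma step was tested on simulated data.

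Values in every library are given for the 4 members with the smallest p in G1/S control and in S phase, the 3 smallest in each mitotic role, the 2 largest rises and falls, and members called against the direction of most of their class; of other pathway lists, the 3 genes with the smallest p are named. The library values of Ccne2, Mcm5, Rb1, Rbl1 and Rbl2, and further genes of those lists, were added after they were seen. Replicate numbers appear in both groups, but deviations of same-numbered libraries correlated at only -0.019, 0.027 and -0.001. No shared effect of a replicate number was thus seen, which does not exclude that samples were prepared in pairs. Replicates differed by more than sampling noise (chi-square per gene of 1.92 to 2.49), so none was counted as a duplicate. Alternatives changed the pseudocount, the filter, the scaling, the test, the adjustment, the length and GC trend, the libraries, a replicate block and the promoter window.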

Additional observations from a re-analysis of the deposited data

How the results depend on the processing

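Of the 74 members, 74 kept their call with a pseudocount of 0.5 or 5, with no filter, with a filter on the mean over libraries (5 CPM, computed from listed values), with TMM factors, with edgeR and with the replicate block. DESeq2 kept 67, losing Cenpw, Incenp, Cdca2, Cdca3, Ttk, Bub3 and Mcm3ap, and adjustment over all 55450 annotated genes kept 71 (90.4% of tested genes), losing Incenp (adjusted p = 0.0648), Bub3 (0.0509) and Cenpv (0.0854). Over all tested genes edgeR called 3396 higher and 3517 lower, DESeq2 3017 and 3229, and limma 3624 and 3542. These count tests, TMM factors on the deposited values (in place of those planned on recovered reads) and the lengths of the longest transcript were chosen after seeing the data.

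No call on a member was changed by the replicate block, with which 17 members were higher and 57 lower; every same-numbered pair correlated near 0. Scaling to listed totals moved the median over all tested genes to -0.03, beside 0.08 as deposited, and gave medians of -0.41 for members, -0.58 for G1/S, -0.30 for S phase, -0.42 for mitosis and 0.21 for other function; E2f6 and Cenpt lost their calls and Bub3 turned to -0.02. TMM gave -0.31 for members and -0.33 for mitosis.

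With the length and GC trend removed, 11 members were higher, 1 of them in G1/S and 3 in mitosis, and the medians were -0.17 for members, -0.36 for G1/S, -0.12 for S phase, -0.19 for mitosis and 0.13 for other function. Cdk6 (0.00), Cenpf (0.03), Cenpt (-0.06), Mcm3ap (0.05), Smc4 (0.05) and Tpx2 (0.05) changed sign, and the replicate block with the length and GC trend removed gave these same values, counts and medians. With lengths of the longest transcript, Cenpf (0.03), Mad2l1bp (-0.01), Mcm3ap (0.05), Smc4 (0.00) and Tpx2 (0.00) changed sign, 1 G1/S gene was higher, and the medians were -0.20 for members, -0.34 for G1/S, -0.21 for mitosis and 0.11 for other function. These lengths kept 59 of 74 calls and 34 of 43 mitotic ones, where principal transcripts kept 52 and 28. Mcm5, Cdc23, Cenpc1, Cenpt, Top2a, Cdca2, Cdk1 and Bub3 kept their calls only with the longest transcript. Ndc80 lost its call only there (-0.17, adjusted p = 0.0807). The cause of these changes was not tested.

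In the pathway lists, the anaphase-promoting complex and cohesin had 1 gene higher with DESeq2, edgeR, listed totals, either length correction or without siSirt6 replicate 1, and 3 lower with either length correction. Other replication genes had 3 higher with DESeq2 and edgeR, 2 with listed totals, and 2 higher and 5 lower with the length and GC trend removed, alone or with the block, or 3 and 5 with the longest transcript. Other mitotic genes had 1 higher with listed totals, and 1 higher and 22 lower with the longest transcript. Promoter windows of 150 bases before the start left 0% of G1/S promoters with TTTAAA and 0% of S phase promoters with CHR letters and CCAAT. In these windows CHR letters were in 62.5% of mitotic promoters, 1 of 10 G1/S promoters and 7.11% of those of tested genes, where CHR letters with CCAAT were in 2.46%. Leaving out each library in turn gave 54 to 57 members lower and 17 higher, G1/S medians of -0.47 to -0.42, 2 to 4 genes of other function lower, with 2 of them without Control replicate 3, and 1 to 2 genes of the anaphase-promoting complex and cohesin higher. Depth limits low members most: Cdca7l and Cenpv, at 118.8 normalised read counts or fewer in every library, had the largest standard errors (0.18 and 0.169).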
